A study of Mus musculus with 12 samples.

Results

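Expression of 6 intermediate filament genes was followed in RNA sequencing of primary entorhinal cortex (EC) neurons in which Dek was silenced or overexpressed. They were the neurofilament subunit genes Nefl, Nefm, Nefh and Ina, together with Vim and Nes, 6 of the 24100 genes in the count table. They were chosen by gene symbol, from a family in which values of the comparison of the Dek hairpin with the scrambled hairpin had already been seen. That comparison is therefore given for them as a description, with no p values, and nothing is read from how many of them were called in it. All 6 passed the filter on low counts in each of the 4 comparisons.

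Cultures were prepared from the entorhinal cortex of C57BL/6J mouse embryos at embryonic day 17. At 7 days in vitro, wells received an adeno-associated virus (AAV) at 1e+10 viral genomes per ml, and RNA was taken 4 days later. The 4 groups of 3 wells were the Dek hairpin (AAV1-mCherry-U6-mDEK-shRNA), the scrambled hairpin (AAV1-mCherry-U6-scrmb-shRNA), the Dek cDNA (AAV1-hSyn1-mDEK-IRES-mCherry) and the empty vector (AAV1-hSyn1-mCherry-WPRE). The hSyn1 promoter, which is active in neurons, drove the Dek cDNA and its empty vector, whereas the hairpins were transcribed from U6, so the hairpin and cDNA arms differed in backbone as well as in Dek. All 12 wells carried an mCherry virus and no untransduced well was analysed here. No source used here says that the wells of a group came from separate dissections, so the errors measure the spread between wells, which may be technical.

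Intermediate filaments are rope-like cytoskeletal polymers. In mature neurons they are built from the light, medium and heavy neurofilament subunits (NFL, NFM and NFH, encoded by Nefl, Nefm and Nefh) and α-internexin (encoded by Ina). They fill the axon and set its calibre, and NFL released from injured axons is used as a blood and cerebrospinal fluid marker of neurodegeneration. Vimentin (Vim) and nestin (Nes) form the filaments of neural progenitors and radial glia, vimentin also being present in astrocytes and in many non-neural cells, and during differentiation neurons exchange them for α-internexin and then for neurofilament proteins.

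Library totals lay between 15679567 and 18933382 estimated counts. Levels are given as CPM, counts scaled to library size with TMM factors over the 12 libraries. Dek itself was at 7.75 ± 1.01 CPM with the Dek hairpin and 36.1 ± 0.71 CPM with the scrambled hairpin (SD, n = 3). It was at 143 ± 13.5 CPM with the Dek cDNA and 38.7 ± 2.55 CPM with the empty vector. All 14 pan-neuronal markers were detected in every group, and their summed level ranged from 10000 to 11790 CPM over the 12 libraries. Summed microglial markers ranged from 3.32 to 12.3 CPM. The 10 neural progenitor and 8 oligodendrocyte lineage markers were also detected in every group, and the markers at 0 throughout a group were Cldn5 (Dek hairpin), P2ry12 (scrambled hairpin), Tmem119 (Dek cDNA) and Gjb6 (empty vector). Progenitor markers summed to 729 to 1404 CPM with the Dek hairpin, 643 to 1170 CPM with the scrambled hairpin, 549 to 595 CPM with the Dek cDNA and 407 to 619 CPM with the empty vector. Libraries numbered 1 of the Dek hairpin (729 CPM) and of the scrambled hairpin (643 CPM) were the lowest of their groups. In bulk RNA of such a culture, fewer cells of a type and less RNA per cell cannot be told apart.

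In the GENCODE vM21 annotation of GRCm38, the assembly also named mm10, Nefl and Nefm are neighbours on chromosome 14. Nefl lies at chr14:68083863-68089095 on the plus strand, with 4 exons and a transcript of 3380 bases, and Nefm at chr14:68082590-68124846 on the minus strand. One Nefm transcript model runs across Nefl, so that 1108 of the 3380 exonic bases of Nefl are also annotated as Nefm exon on the other strand. The use of strand in counting is not given in the sources used here, and reads from those bases cannot be told apart without it. Estimated counts of Nefm were not whole in 12 of 12 libraries, and those of Nefl were whole in all 12. Nefh lies at chr11:4938754-4948064 on the minus strand. Ina lies at chr19:47014698-47025327 on the plus strand and shares 456 of its 3240 exonic bases with Nt5c2 on the minus strand. Vim, at chr2:13573927-13582826, has 9 exons, and Nes lies at chr3:87971078-87980451, both on the plus strand.

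RefSeq promoter windows on GRCm38.p6, from 250 bases before to 50 bases after the start, were matched for 3 of the 6 genes, Ina, Vim and Nes. They are shown because Ina is the neurofilament gene with an entry and because Vim and Nes varied together between wells. Capitals mark GGGCGG or GCGGGGGCG for Ina and Nes, and CCAAT and TATAAA for Vim, on either strand.
Ina, chr19:47014431-47014730, plus strand: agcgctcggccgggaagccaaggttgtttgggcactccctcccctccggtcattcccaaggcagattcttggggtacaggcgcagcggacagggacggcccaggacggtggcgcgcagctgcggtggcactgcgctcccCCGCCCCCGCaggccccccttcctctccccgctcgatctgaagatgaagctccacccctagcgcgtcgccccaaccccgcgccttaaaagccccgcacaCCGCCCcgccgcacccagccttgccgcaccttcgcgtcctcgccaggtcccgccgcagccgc
Vim, chr2:13574061-13574360, plus strand: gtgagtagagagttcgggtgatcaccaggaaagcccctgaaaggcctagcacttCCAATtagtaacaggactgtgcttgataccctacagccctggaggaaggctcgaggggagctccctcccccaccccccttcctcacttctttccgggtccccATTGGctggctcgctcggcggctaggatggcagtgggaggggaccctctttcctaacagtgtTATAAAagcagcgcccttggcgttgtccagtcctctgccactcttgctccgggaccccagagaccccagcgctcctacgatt
Nes, chr3:87970843-87971142, plus strand: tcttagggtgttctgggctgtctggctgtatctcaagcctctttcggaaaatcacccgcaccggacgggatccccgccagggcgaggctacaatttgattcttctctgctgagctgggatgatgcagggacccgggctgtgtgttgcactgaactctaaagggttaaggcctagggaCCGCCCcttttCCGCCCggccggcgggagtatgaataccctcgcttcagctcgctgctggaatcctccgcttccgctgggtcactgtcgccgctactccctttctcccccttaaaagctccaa

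The Ina window had the highest GC content, 71.7%, against 59.3% for Vim, 58.7% for Nes and a median of 52.7% over 32851 windows. TATAAA was present in the Vim window and in 13.6% of all windows, and was not present in those of Ina and Nes. GGGCGG, the core of an SP1-type site, occurred at 2 positions in both Ina and Nes and in 35.7% of all windows. One of the Ina matches overlapped a match to GCGGGGGCG, an EGR-type sequence held by 2.91% of windows. Vim held CCAAT at 2 positions, as did 37.4% of windows at 1 or more positions. TGACGTCA, TGACGCAA, CACGTG and GCGTGGGCG were also sought on both strands, and these letters were not in the 3 windows.

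Matches to the seed of the Dek hairpin were sought in the annotated 3′ UTRs with 2 heptamers, as a description. AGGATCT pairs with bases 2 to 8 of the guide. AAGAGGA would pair with a guide shifted by 3 bases and was picked in an earlier analysis of these data. Nefl held 1 of each, Ina held 1 AAGAGGA, and Nefm, Nefh, Vim and Nes held neither. Over all 21020 genes with a 3′ UTR the shares were 9.93% and 15.6%. The sites are printed with the heptamer in capitals.
Nefl, 3′ UTR bases 244 to 250 of 1648: cttatgagttcAGGATCTatggcaatgtg
Nefl, 3′ UTR bases 863 to 869 of 1648: atgatacaattAAGAGGAatgtcatgggg
Ina, 3′ UTR bases 523 to 529 of 1677: ttctcgcacccAAGAGGAaggaacagagt

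The first comparison asked how Dek silencing changed the transcriptome of EC neurons. All 4 neurofilament subunit transcripts were lower in Dek-silenced neurons, 4.81-fold for Nefl, 5.31-fold for Nefm, 4.55-fold for Nefh and 2.61-fold for Ina. Nes was lower by 1.78-fold, and Vim was at overlapping levels. These values chose the genes, so they are given as a description.

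Nefl, whose product nucleates the heteropolymer, was at 36.0, 30.0 and 48.7 CPM in the 3 Dek hairpin libraries and at 211, 173 and 163 CPM in the scrambled hairpin libraries. All 3 silenced libraries stood far below the lowest control library. The log2 fold change (log2FC) was −2.27 (SE 0.21). Nefm, which encodes the medium subunit with a long phosphorylated tail, was at 11.4, 11.3 and 13.9 CPM against 79.4, 56.5 and 56.8 CPM. The groups did not overlap, and the log2FC was −2.41 (SE 0.16).

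Nefh, which encodes the heavy subunit and is the last of the subunits to appear in development, was at 11.0, 7.68 and 13.0 CPM against 53.9, 48.1 and 40.9 CPM. Here too the groups were far apart (log2FC = −2.19, SE 0.18). Ina, which encodes the subunit most abundant early in axon growth, was at 98.5, 89.2 and 97.7 CPM against 239, 255 and 242 CPM. The wells of each group lay close together, and the log2FC of −1.38 had the smallest error of the 6 genes (SE 0.06). By log2FC, Nefm ranked 14 from the lowest among 14232 genes tested, Nefl 25, Nefh 35 and Ina 275. A log2FC below −2 was found for 59 genes, or 0.415%. The genes were chosen with these values in view, so nothing is read from the ranks.

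Vim and Nes behaved differently from the subunits and from each other. Vim was at 191, 280 and 322 CPM with the Dek hairpin and at 182, 228 and 260 CPM with the scrambled hairpin. The ranges overlapped and the spread between wells was larger than the difference (log2FC = 0.23, SE 0.25). Nes was at 29.5, 47.2 and 56.8 CPM against 60.6, 84.5 and 91.7 CPM. The highest silenced well stood just below the lowest control well (log2FC = −0.83, SE 0.30).

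**Figure D1:**
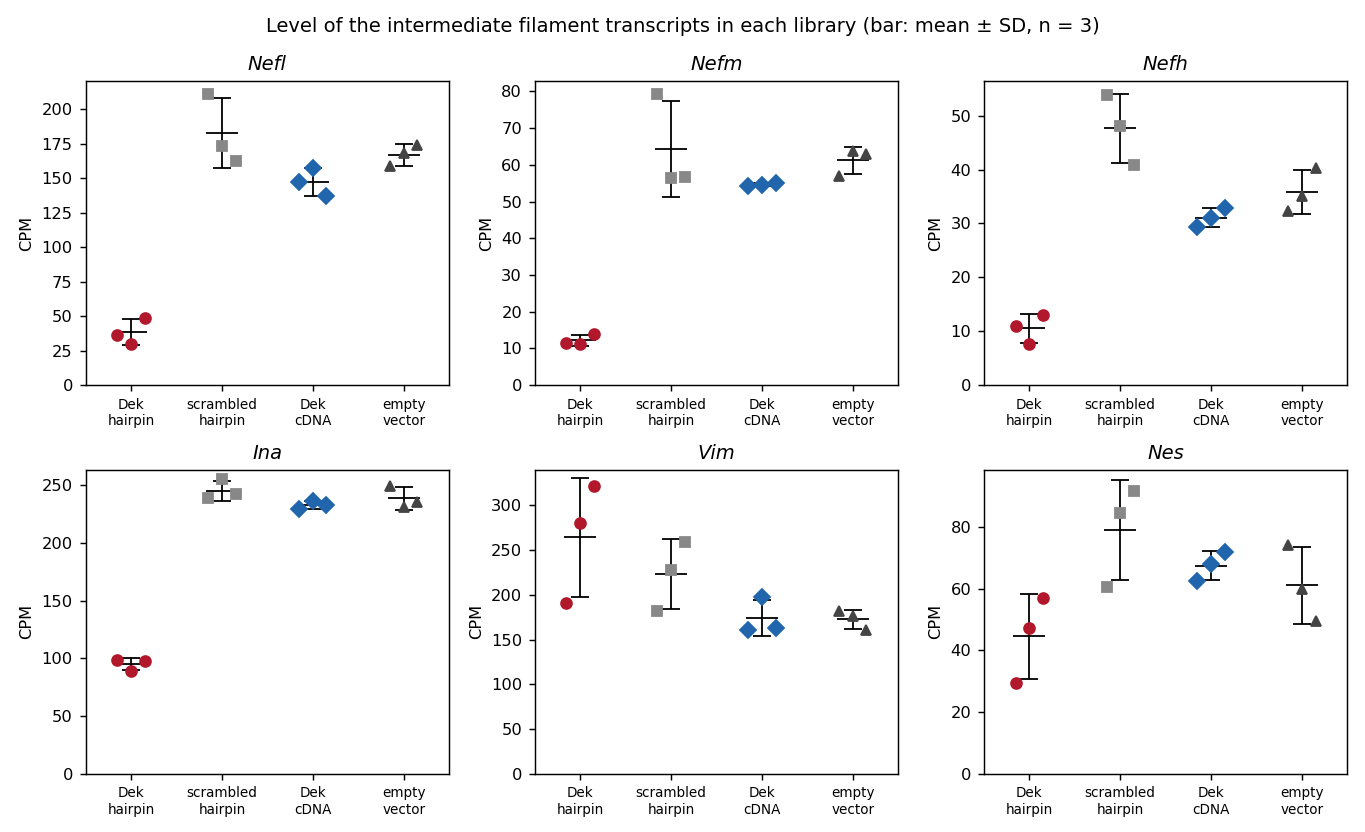
CPM of Nefl, Nefm, Nefh, Ina, Vim and Nes in each library (points, wells 1 to 3 from left to right) for the 4 groups, with the mean and SD of 3 wells as bars. The 4 subunit transcripts lay lower in all 3 Dek hairpin wells than in the other 9, whereas Vim overlapped between the hairpin groups.

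Of the 6 genes, 4 were called lower and 0 higher at an adjusted p below 0.05 in edgeR's quasi-likelihood test, where 54.7% of all 14232 genes were called and 28.5% were called lower. The groups did not overlap for 5 of the 6, against 61.9% of all genes. The median log2FC was −1.79 over the 6 genes and −0.0011 over all genes. Over all genes, 4060 were called lower and 3730 higher, and with scaling by library size alone the split was 3210 to 4793. With the replicate number as a block, which compares wells of the same number, all 6 genes were called, 5 lower and 1 higher, where 60.6% of all genes were, Vim with a log2FC of 0.21 (SE 0.06) and Nes with −0.86 (SE 0.07). Because this comparison chose the genes, nothing is read from these counts, with or without the block. Between wells of the same number, Nes was lower by 1.04, 0.84 and 0.69 on the log2 scale and Vim differed by 0.07, 0.30 and 0.31.

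Vim and Nes moved with glial and progenitor markers from well to well in the hairpin groups. On deviations from group means over 12 libraries, r with the progenitor, astrocyte and oligodendrocyte lineage sums was 0.89, 0.88 and 0.96 for Vim. It was 0.97, 0.96 and 0.96 for Nes, so none of these sums was singled out. The progenitor sum was mainly Fabp7 and Slc1a3, at means of 830 and 270 CPM with the Dek hairpin, where the mean sum was 1171 CPM. Dek hairpin library 1, lowest of its group for Vim and Nes, had 729 CPM of summed progenitor markers against 1378 and 1404 CPM in libraries 2 and 3. Its astrocyte markers summed to 319 CPM against 500 and 507 CPM, and its oligodendrocyte lineage markers to 128 CPM against 213 and 228 CPM. Scrambled hairpin library 1 was also the lowest of its group for Vim and Nes, with 643 CPM of progenitor markers against 1018 and 1170 CPM. Empty vector libraries with 74.1, 59.7 and 49.4 CPM of Nes had progenitor sums of 619, 524 and 407 CPM. With the Dek cDNA the progenitor sums were 549, 561 and 595 CPM. Nes followed them there (62.4, 68.0 and 71.7 CPM), whereas Vim did not (161, 197 and 163 CPM). Without the libraries numbered 1 of both hairpin groups, a choice made after seeing the data, the log2FC was 0.29 (SE 0.08) for Vim and −0.77 (SE 0.09) for Nes.

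Nes relative to Vim, examined after the levels had been seen, set the silenced wells apart from all others. The ratio of Nes to Vim, each as CPM per kilobase, was 0.0386, 0.0422 and 0.0443 with the Dek hairpin. With the scrambled hairpin it was 0.0834, 0.0929 and 0.0886, with the Dek cDNA 0.0974, 0.0865 and 0.110, and with the empty vector 0.102, 0.0851 and 0.0769. All 9 other wells lay above the 3 silenced wells.

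**Figure D2:**
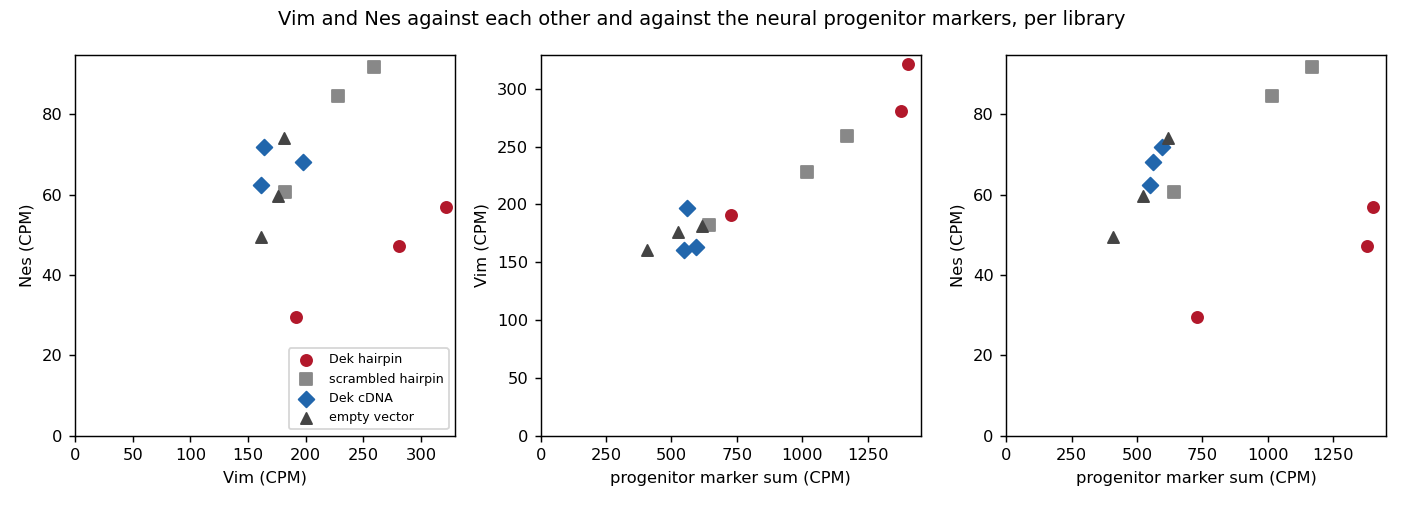
Left, Nes against Vim in CPM per library. Middle and right, Vim and Nes in CPM against the summed CPM of 10 neural progenitor and radial glia markers. The points of the 4 groups fall along a common course for Vim, and for Nes the point of Dek hairpin library 1 lies below all others, while those of Dek hairpin libraries 2 and 3 lie at higher marker sums than any other library.

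The sums of neuronal markers were lower with the Dek hairpin, at 10000 to 10590 CPM, than with the scrambled hairpin, at 11390 to 11790 CPM. Of the 14 pan-neuronal markers, 7 fell, among them Uchl1 (−0.82, SE 0.06), Gap43 (−0.46, SE 0.05), Tubb3 (−0.32, SE 0.09) and Map2 (−0.14, SE 0.05). Another 3 rose, namely Eno2 (0.27, SE 0.05), Nsg1 (0.31, SE 0.04) and Rbfox3 (0.34, SE 0.12). These marker counts are to be read against 54.7% of all genes called, 28.5% lower. With scaling by library size alone 5 fell and 5 rose, and Tubb3 and Map2 were no longer called. Oligodendrocyte lineage markers summed to 128 to 228 CPM with the Dek hairpin and 75.5 to 126 CPM with the scrambled hairpin, and 5 of 8 rose, among them Sox10, Pdgfra, Mbp and Cspg4, while Mog fell. When Dek hairpin library 2 was left out, 3 of these markers rose. Mbp was at 18.3 CPM with the Dek hairpin, 7.43 with the scrambled hairpin, 18.7 with the Dek cDNA and 19.6 with the empty vector. Between the controls, where 43.1% of all genes were called, 1 of the 8 was lower with the scrambled hairpin, Mbp (−1.40, SE 0.11), and 1 was higher. Against the empty vector, where 67.4% of all genes were called, 3 of the 8 were higher with the Dek hairpin and 1 was lower. Against the scrambled hairpin, 1 of the 9 progenitor markers tested rose (Prom1, 0.85, SE 0.27) and 0 fell, and of 7 astrocyte markers 0 were called in edgeR or DESeq2. The progenitor count was 0 without Dek hairpin library 2, Dek hairpin library 3 or scrambled hairpin library 1, 3 without Dek hairpin library 1 and 2 without scrambled hairpin library 3. With the replicate block 5 progenitor markers rose (Prom1, Hes5, Fabp7, Slc1a3 and Notch1), as did 1 astrocyte marker, Gfap, and 7 of the 8 oligodendrocyte lineage markers, Olig1 (0.63, SE 0.10) and Olig2 (0.58, SE 0.08) being added. At an unadjusted p below 0.05, 2 progenitor and 0 astrocyte markers were higher. Of 5 vascular and fibroblast markers tested, 0 were called in edgeR or DESeq2 and 0 had an unadjusted p below 0.05, with 1 called without Dek hairpin library 1 or scrambled hairpin library 3, and of 4 microglial markers 1 fell, Aif1 (−1.60, SE 0.21), at a summed microglial level of 3.32 to 6.69 CPM. The part of these cell types in the levels of the 6 genes was not tested.

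The levels of the subunit transcripts in the hairpin groups were also described as a composition, which restates the fold changes above and is not a separate result. Levels were divided by mean transcript length and each gene was expressed as a share of the sum over Nefl, Nefm, Nefh and Ina. The sum was 46.8 ± 5.12 CPM per kilobase with the Dek hairpin and 160 ± 11.6 with the scrambled hairpin (SD, n = 3). Ina made up 64.6, 66.2 and 58.2% in the silenced wells against 42.8, 49.8 and 50.1% in the scrambled wells. Nefl made up 22.6, 21.4 and 27.8% against 36.3, 32.4 and 32.2%. The share of Ina was higher, and that of Nefl lower, in every silenced well. The medium and heavy subunits kept nearer to Nefl. The ratio of Nefm to Nefl per kilobase was 0.276 to 0.362 with the Dek hairpin and 0.314 to 0.362 with the scrambled hairpin, and that of Nefh to Nefl was 0.217 to 0.259 against 0.213 to 0.235, so both overlapped between groups.

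**Figure D3:**
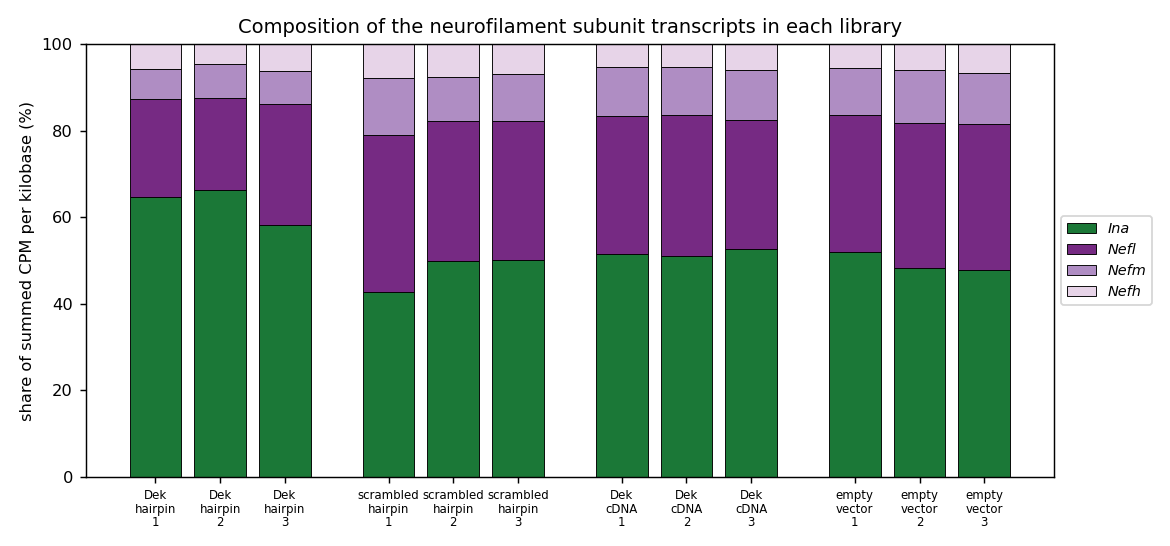
Share of Ina, Nefl, Nefm and Nefh in their summed CPM per kilobase (y axis, percent), with 1 stacked bar for each library. Ina takes 58.2 to 66.2% in the Dek hairpin wells and 42.8 to 52.8% in the other 9.

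The second comparison asked what overexpression of Dek did, on libraries that the choice of the genes did not use. Earlier results of these data were known when the genes were chosen. Nefl was at 147, 157 and 137 CPM with the Dek cDNA and 158, 168 and 174 CPM with the empty vector. The groups did not overlap, but only narrowly. Its log2FC was −0.18 (SE 0.06, edgeR adjusted p = 0.69, lower in 3 of 3 wells than every control well). Nefm was at 54.2, 54.4 and 55.0 CPM against 57.1, 63.8 and 62.9 CPM, again without overlap (log2FC = −0.16, SE 0.06, edgeR adjusted p = 0.70). Nefh was at 29.3, 31.0 and 32.9 CPM against 32.2, 35.1 and 40.2 CPM, the highest Dek cDNA well lying above the lowest control well (log2FC = −0.20, SE 0.09, edgeR adjusted p = 0.72).

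The remaining 3 genes had smaller differences. Ina was at 229, 237 and 233 CPM against 250, 231 and 235 CPM (log2FC = −0.03, SE 0.05, edgeR adjusted p = 0.94). Vim was at 161, 197 and 163 CPM against 182, 176 and 161 CPM (log2FC = 0.01, SE 0.08, edgeR adjusted p = 0.99). Nes was at 62.4, 68.0 and 71.7 CPM against 74.1, 59.7 and 49.4 CPM (log2FC = 0.15, SE 0.12, edgeR adjusted p = 0.87). The ranges of all 3 overlapped.

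In the edgeR test 0 of the 6 genes were called, as in the DESeq2 Wald test. Over all 14089 genes 1 was called, Dek, which is 0.00710%. At an unadjusted p below 0.05 there were 3 of 6, Nefl, Nefm and Nefh, all lower, against 6.60% of all genes, and 2 of 6 did not overlap, against 11.7%. On deviations from group means, r was 0.80 for Nefl with Nefm, 0.86 for Nefl with Nefh and 0.67 for Nefm with Nefh. The 3 genes varied together between wells, so they are not separate results. The median log2FC was −0.10 over the 6 genes and 0.0018 over all genes. The shares in the summed subunit level overlapped, Ina at 51.6, 51.1 and 52.8% with the Dek cDNA and 52.0, 48.2 and 47.8% with the empty vector. The mean share of Ina was 2.52 percentage points higher with the Dek cDNA, and that of Nefl differed by −1.67. The difference was 3.86 for Ina without empty vector library 1 and −0.85 for Nefl without Dek cDNA library 3.

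**Figure D4:**
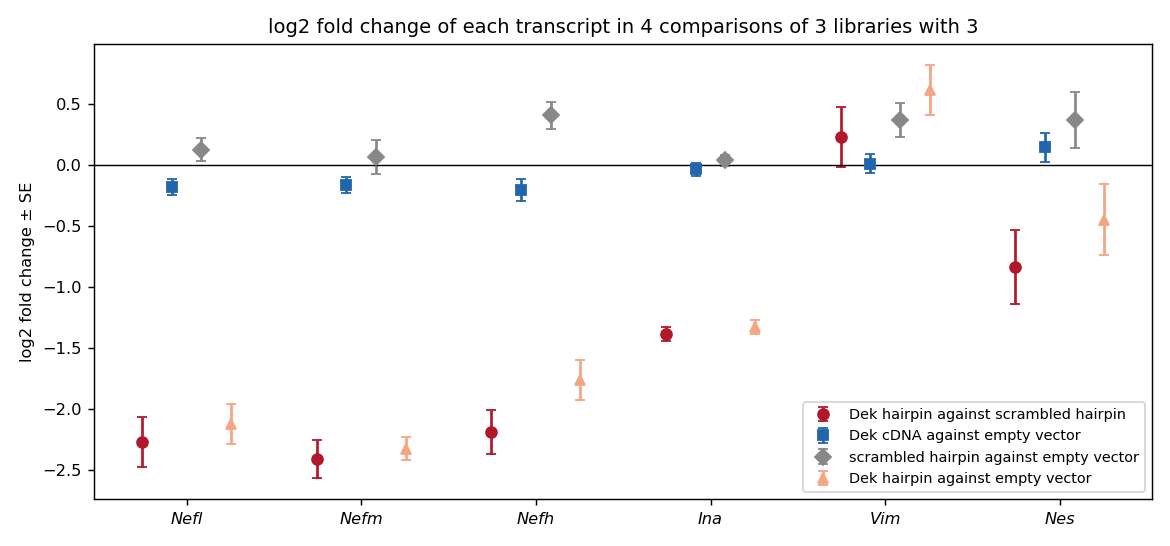
log2FC (y axis) of the 6 genes (x axis) in the 4 comparisons of 3 wells with 3, as points with SE bars. The 4 subunit genes lie between −2.41 and −1.33 wherever the Dek hairpin is compared and between −0.20 and 0.41 in the other comparisons.

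The scrambled hairpin and the empty vector, both controls, were set against each other to show how far the controls differed. They belong to separate arms of the study, so vector, arm and any culture batch cannot be told apart there. Nefh was 1.33-fold higher with the scrambled hairpin (log2FC = 0.41, SE 0.11), its 3 wells at 40.9 CPM and above and the empty vector wells at 40.2 CPM and below. The log2FC was 0.13 (SE 0.09) for Nefl, 0.07 (SE 0.14) for Nefm and 0.04 (SE 0.04) for Ina, that of Nefm being −0.11 without scrambled hairpin library 1. It was 0.37 for both Vim (SE 0.14) and Nes (SE 0.23). Of the 6 genes 1 was called, Nefh, where 43.1% of 14096 genes were, and that call was lost without empty vector library 1 or 2. Against the empty vector, the Dek hairpin gave a log2FC of −2.12 (SE 0.16) for Nefl, −2.32 (SE 0.09) for Nefm, −1.76 (SE 0.16) for Nefh and −1.33 (SE 0.06) for Ina. It was 0.62 (SE 0.20) for Vim and −0.45 (SE 0.29) for Nes. There 5 of 6 genes were called, 4 lower and Vim higher, against 67.4% of 14292 genes. The call of Vim was lost, with a log2FC of 0.33, once an offset for GC content and transcript length was used, and was also lost without Dek hairpin library 2 or 3 or any 1 of the empty vector libraries, and without a filter on low counts. These comparisons share libraries with the first, so their values stand side by side and are not separate evidence.

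Across the 4 groups the order of the levels differed by gene. For Nefl, Nefm, Nefh and Ina the Dek hairpin was lowest, with no overlap with its neighbour in the order. Above it, the order for Nefl was the Dek cDNA (147 ± 10.1 CPM), the empty vector (167 ± 7.89) and the scrambled hairpin (182 ± 25.5), the last 2 overlapping. Nefm gave the same order, at 54.5 ± 0.38, 61.2 ± 3.62 and 64.2 ± 13.1 CPM, again with the 2 controls overlapping. So did Nefh, at 31.1 ± 1.79, 35.8 ± 4.05 and 47.6 ± 6.49 CPM, where the Dek cDNA and the empty vector overlapped. Ina lay between 229 and 255 CPM in all 9 wells without the Dek hairpin. For Vim the Dek cDNA and the empty vector overlapped at the bottom (174 ± 20.4 and 173 ± 10.7 CPM), and the Dek hairpin was highest at 264 ± 66.6 CPM, overlapping with the scrambled hairpin (223 ± 38.9). For Nes the order was the Dek hairpin (44.5 ± 13.9 CPM), the empty vector (61.1 ± 12.4), the Dek cDNA (67.4 ± 4.68) and the scrambled hairpin (79.0 ± 16.3), each overlapping with the next.

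Between genes, levels per kilobase placed Vim first. With the empty vector it was at 114 ± 7.04 CPM per kilobase, followed by Ina (73.7 ± 2.99), Nefl (49.4 ± 2.33), Nefm (17.5 ± 1.03), Nes (10.1 ± 2.05) and Nefh (8.97 ± 1.01), the last 2 overlapping. By its longest transcript in place of the mean of 3 models, Vim was at 78.8 CPM per kilobase. With the Dek hairpin the order was Vim (175 ± 44.0), Ina (29.4 ± 1.59), Nefl (11.3 ± 2.82), Nes (7.37 ± 2.30), Nefm (3.48 ± 0.43) and Nefh (2.64 ± 0.67). Nefl and Nes overlapped there, as did Nefm and Nefh. Nes stood above Nefm in the silenced wells and below it in the empty vector wells.

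Genes with a profile most like each of the 6 were named by Pearson r of log2 CPM over the 12 libraries, among 11019 genes with a mean of at least 5 CPM. The 3 Dek hairpin libraries stand apart, so a high r mostly says that a gene was low or high in those 3. For Nefl the 3 nearest genes were Eif3d, Calr and Ckap4 (r = 0.995, 0.994 and 0.994), and Nefm itself ranked 5 (r = 0.993). For Nefm they were Eif3d, Uqcc1 and Calu (r = 0.995, 0.995 and 0.994). Nefh was nearest to Slc5a6, Dzip1l and Xpo6 (r = 0.992, 0.989 and 0.987), and Ina to Slc22a23, Tvp23a and Dnajc14 (r = 0.998 for each).

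Vim was nearest to Mfge8, Igfbp2 and Pla2g7 (r = 0.978, 0.973 and 0.970) and Nes to Sfxn5, Prex1 and Gramd4 (r = 0.957, 0.956 and 0.949). On deviations from the group means, which leave out the group differences, r was 0.80 between Nefl and Nefm, 0.86 between Nefl and Nefh and 0.28 between Nefl and Ina. Between Vim and Nes it was 0.90, against 0.07 over the undivided values. The 12 libraries share groups and, for Nefl and Nefm, exonic bases, and these r are given as a description.

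Other genes of intermediate filament biology were counted over whole lists. These lists and the marker lists above were chosen with earlier results of these data known, so their counts are a description. After Dek silencing 54.7% of all genes were called, 28.5% lower, and the counts are to be read against that. Of the other intermediate filament and lamin genes, 4 fell and 4 rose after Dek silencing, of 15 tested in a list of 24. With the replicate block 4 fell and 6 rose, Gfap and Lmnb1 being added, and with library size alone 3 fell and 5 rose. Prph, which encodes the peripheral neuronal subunit peripherin, fell (log2FC = −0.70, SE 0.17) from 6.75 to 9.17 CPM down to 4.02 to 5.16 CPM. Krt1, Krt222 and Lmnb2 also fell (−0.65, −0.43 and −0.54), Krt222 not being called with library size alone. Krt7 (3.01, SE 0.50), Iffo2 (0.66), Iffo1 (0.53) and Krt10 (0.39) rose, Krt7 from 0.0592 to 0.397 CPM up to 1.12 to 2.23 CPM. Synm, which encodes a vimentin partner, and Lmna had log2FC values of −0.19 and −0.11 and were not called. Against the empty vector, where 67.4% of all genes were called, 4 of 14 tested were lower with the Dek hairpin and 5 higher. Krt1 was not called there (−0.05, SE 0.14).

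With 54.7% of all genes called, 4 fell and 5 rose of the 12 tested genes whose proteins link, fold or degrade intermediate filaments. Those that fell were Dnajb6 (−1.14, SE 0.05), a chaperone, Macf1 (−0.89, SE 0.05), a large cytolinker of actin and microtubules, Uchl1, a deubiquitinase, and Myo5a (−0.52, SE 0.05), a motor that binds NFL. The small heat shock gene Hspb8 rose most (1.32, SE 0.17), from 3.57 to 4.38 CPM up to 8.35 to 11.3 CPM. Cryab (0.41), Trim2 (0.25), a ligase of NFL, and Mtmr2 (0.19) were also among those that rose. The giant linkers Dst and Plec had log2FC values of −0.11 and −0.22 and were not called. Against the empty vector, where 67.4% of all genes were called, 7 of 12 were lower with the Dek hairpin and 3 higher. Mtmr2 was among the lower there (−0.165, SE 0.06), and Trim2 was not called (−0.13, SE 0.07).

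Genes for kinases and other enzymes that modify neurofilament tails gave 5 lower and 1 higher of 14, against 54.7% of all genes called. Gsk3a fell from 214 to 224 CPM down to 50.1 to 51.6 CPM (log2FC = −2.12, SE 0.05). Mapk10 (−0.89, SE 0.05), Gsk3b (−0.77, SE 0.06) and Mapk8 (−0.36, SE 0.06) were also among those that fell, and Prkaca rose (0.25, SE 0.05). Cdk5, a main kinase of the NFH tail, and its activator Cdk5r1 had log2FC values of −0.08 and −0.04 and were not called. With the offset for GC content and transcript length 8 fell and 2 rose.

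Of the 6 genes for RNA-binding proteins reported to bind neurofilament transcripts, 5 fell and 0 rose. Arhgef28, which encodes a binder of the Nefl 3′ UTR, changed most (−1.17, SE 0.15), and Elavl4 (−0.87, SE 0.06), Tardbp (−0.35, SE 0.06) and Hnrnpk (−0.18, SE 0.05) fell by less. Ywhaz had a log2FC of −0.02. With library size alone 3 fell, and Hnrnpk was among those no longer called. Of the genes called, Uchl1 and Elavl4 stand in 2 lists each and were counted once in the total. Over all 10 lists 25 genes fell and 19 rose of 91 tested, or 44 called, to be read against the 54.7% of all genes. With the Dek cDNA 0 of 87 list genes tested were called in edgeR and 0 in DESeq2, and 2 were lower, Lmna among them, and 2 higher (Stmn2 and Pdgfrb) at an unadjusted p below 0.05.

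**Figure D5:**
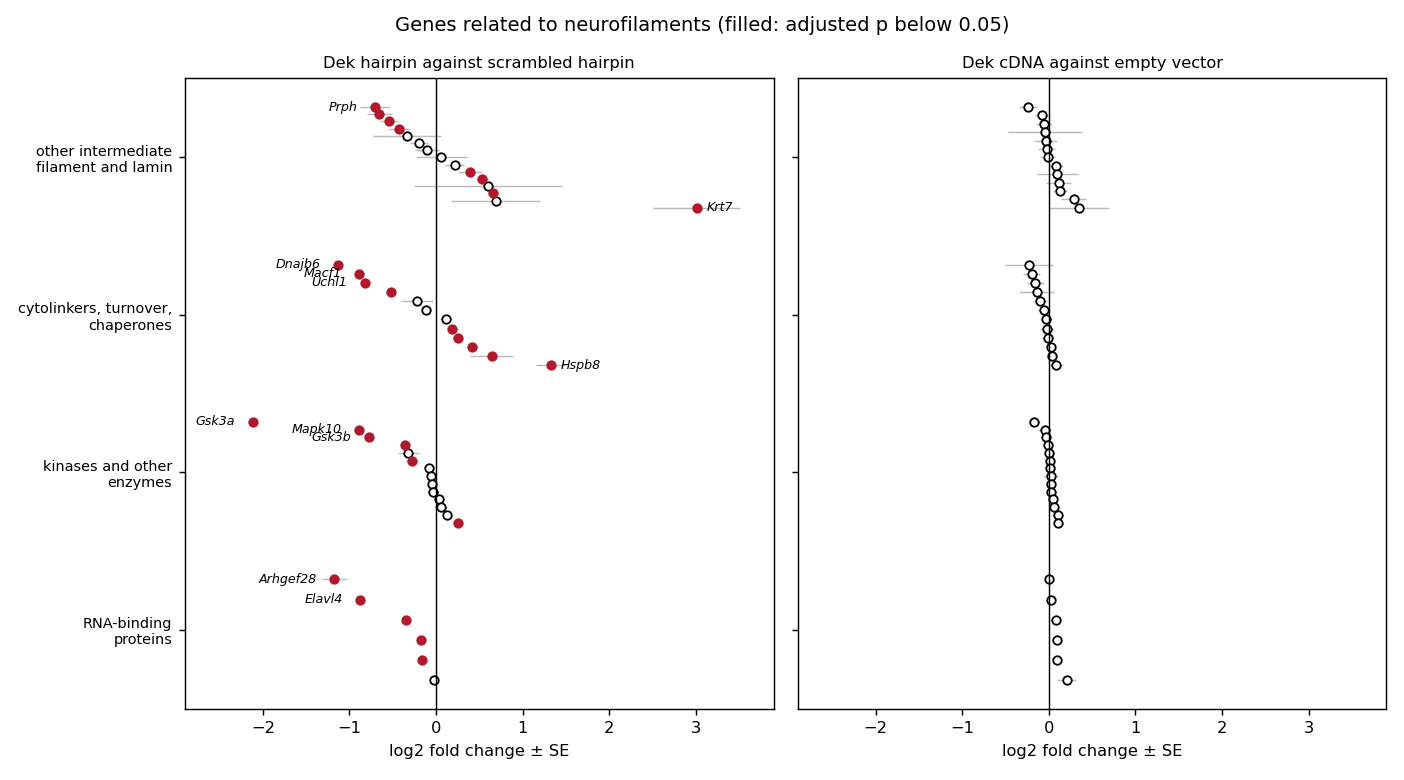
log2FC with SE (x axis) of each tested gene in 4 lists (rows), for Dek hairpin against scrambled hairpin (left) and Dek cDNA against empty vector (right). Filled points passed an adjusted p below 0.05 and larger changes among them are named. On the left Gsk3a lies at −2.12 and Krt7 at 3.01, and on the right 0 points are filled.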

How the data were processed

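RNA sequencing of 12 wells (TruSeq kit, NextSeq 500, 200 ng of RNA each) was analysed from the table of estimated counts that the authors deposited. Their processing notes name Salmon, DESeq2 and mm10 without versions, and the study's methods name STAR and edgeR for the alignment and RPKM. The values were not normalized, 38.6% were not whole, and 9 genes had no symbol. Counts were rounded. Each comparison of 3 with 3 libraries was fitted in edgeR 4.0.16 (R 4.3.3) with filterByExpr, TMM and a robust quasi-likelihood fit, with Benjamini-Hochberg adjustment over all genes tested and a threshold of 0.05. Log2 CPM used a prior count of 2. The 6 genes and the 10 lists were chosen with earlier results of these data known. All 6 genes, Dek and any list gene could be named. A few list genes are counted in their lists but not reported here by name. Lengths and 3′ UTRs came from GENCODE vM21, promoters from RefSeq, and figures from matplotlib 3.10.9. Protein sequences were not analysed here.

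Replicates of a group differed by more than sampling noise. Deviations of same-numbered wells correlated at r = 0.465, 0.328 and 0.157 between the hairpin groups, each above the 0.1 set as a rule for pairing. The highest r with a well of another number was −0.302, 0.331 and 0.0733, so well 2 matched another number about as closely. No source used here states a pairing, and the replicate block is given as an alternative only. Alternatives were relative log expression factors in edgeR in place of TMM, the DESeq2 1.42.0 Wald test, library size alone and 2 other filters. Others were 1 fit of all 12 libraries, the replicate block, an offset for GC content and transcript length, and each library left out.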

Additional observations from a re-analysis of the deposited data

How the results depend on the processing

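Over 15 or 16 alternatives for each of the 6 genes in 4 comparisons, 366 values in all, 360 were counted as unchanged. With the Dek cDNA that meant the same sign and the same side of the threshold. In the other comparisons it meant a log2FC within the spread between wells, whatever became of the call. Some lost calls, such as that of Vim for Dek hairpin against empty vector, are therefore counted as unchanged. The log2FC with the Dek hairpin against the scrambled hairpin ranged from −2.48 to −2.10 for Nefl, −2.52 to −2.18 for Nefm, −2.37 to −2.0 for Nefh, −1.42 to −1.28 for Ina, 0.07 to 0.42 for Vim and −1.05 to −0.61 for Nes. In the Dek cDNA comparison adjusted p values ranged from 0.122 to 1.00 for Nefl, and 0 of the 6 genes were called under any of the 15 alternatives. The log2FC there ranged from −0.23 to −0.13 for Nefl, −0.22 to −0.14 for Nefm, −0.28 to −0.11 for Nefh, −0.061 to −0.0031 for Ina and 0.013 to 0.31 for Nes. Vim changed sign there without Dek cDNA library 2 (−0.089) and without empty vector library 3 (−0.037), its range with each library left out being −0.089 to 0.062. Genes called with the Dek cDNA numbered 1 and became 7 without a filter, 2 with the offset for GC content and transcript length and 35 with that offset and the replicate block. They ranged from 1 to 7 with each library left out (6 without Dek cDNA 2, 2 without Dek cDNA 3, 7 without empty vector 1), and list genes called from 0 to 1 (Aldoc, without empty vector 1). Between the controls, Nefl ranged from 0.0079 to 0.24 and Nefm from −0.11 to 0.15, Nefm changing sign without scrambled hairpin library 1, and 6072 genes became 3592 with the offset and the replicate block. The causes were not tested. For Dek hairpin against scrambled hairpin, where the wells met the rule for pairing by number, the replicate block gave 8620 genes in place of 7790. It changed no call of the 6 genes but those of Vim and Nes. In the other comparisons the wells share only a number, and the block gave 1, 4897 and 9042 genes for Dek cDNA, the controls and Dek hairpin against empty vector, and the call of Nefh between the controls was lost. That call was also lost without empty vector 1 or 2. List counts that moved by over 1.5 times after Dek silencing were progenitor markers (1, with 0 to 5 over the alternatives), astrocyte markers (0, up to 1), vascular markers (0, up to 2), enzymes (6, up to 10), RNA-binding proteins (5, down to 3), and with at least 5 CPM in 3 libraries oligodendrocyte markers (6, then 3) and microglial markers (1, then 0). Without the libraries numbered 1 of both hairpin groups, added after seeing the data, 8020 genes and 54 list genes were called in place of 7790 and 44. The depth of each library limits the lowest genes, such as Krt7 and the microglial markers.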
